A study of Mus musculus with 24 samples.

Results

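Bone marrow-derived macrophages (BMDMs) grown in control media were compared with and without CDDO-Me, a synthetic oleanane triterpenoid, by RNA sequencing. The comparison used 6 of the 24 libraries of the study, 3 media/CDDO-Me and 3 media/vehicle, chosen by their labels and not by any measured value. The BMDMs were primary cells from marrow of C57BL/6 mice, matured with M-CSF, and were given control media, which had stood on a plate without cancer cells, with 100 nM CDDO-Me or vehicle for 24 h. The edited alleles of the study were in cancer cells and not in the macrophages. The other 18 libraries came from BMDMs of the same kind in conditioned media (CM) of the mouse lung carcinoma line LL2, unedited (WT CM), lacking KEAP1 (KEAP1 KO CM) or lacking NRF2 (NRF2 KO CM), again with 3 vehicle and 3 CDDO-Me libraries each. The study's methods describe marrow cells split evenly over wells and call the samples of a group independent, but neither they nor the labels tie the libraries of a group to separate animals, so the p-values below measure the spread between these libraries, which may be technical.

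KEAP1 holds the transcription factor NRF2, encoded by Nfe2l2, at a low level by presenting it to a ubiquitin ligase. Electrophiles such as the oleanane triterpenoids modify cysteines of KEAP1, NRF2 then accumulates, enters the nucleus with a small MAF protein and binds antioxidant response elements near genes for glutathione synthesis, quinone reduction, thioredoxin cycling, NADPH supply and heme breakdown. In macrophages this pathway is also known for its links to inflammatory gene expression and lipid handling.

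Values are length-scaled transcript abundances (TPM), which carry no read depth, so no counting interval could be given. The 6 libraries listed between 18112 and 18586 genes above 0. The macrophage genes Lyz2, Csf1r and Adgre1 were abundant in each library. Lyz2, encoding lysozyme, was at 18568, 18430.3 and 18674 TPM with vehicle and 21541, 19302 and 18008 TPM with CDDO-Me. Csf1r, the M-CSF receptor, was at 810.4, 727 and 936 TPM and 1045, 919.7 and 1059 TPM, and Adgre1, the F4/80 antigen, at 667, 674 and 598 TPM and 670.2, 613 and 581 TPM. The groups overlapped for all 3 genes and none passed the test (adjusted p = 0.96, 0.65 and 0.98). RNA of stromal cells was present as well. The 16 fibroblast markers summed to 2955, 3343 and 2040 TPM with vehicle and to 3989, 5252 and 2240 TPM with CDDO-Me, with Sparc the most abundant and no marker at 0, and the replicate 3 library was the lowest of each group.

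CDDO-Me changed named genes in both directions in about equal number. Of the 13661 genes tested with limma on log2(TPM + 1) values, 821 had a Benjamini-Hochberg adjusted p under 0.05 (6.01%), 420 higher (3.07%) and 401 lower (2.94%) with CDDO-Me. In bulk RNA such as this, fewer cells of a type and less RNA per cell cannot be told apart. Fold changes below are on this log2(TPM + 1) scale, CDDO-Me minus vehicle, which understates the change of low genes. The median log2 fold change of all genes tested was -0.01, and the median absolute value of the 821 genes was 0.90. Among the higher genes 201 changed by at least 1, and among the lower genes 132. The 3 CDDO-Me values lay wholly above or below the 3 vehicle values for 816 of the 821 genes, against 31.5% of all genes tested. A fit blocked on replicate number called 1466 genes, 743 higher and 723 lower, and all 821 genes were among them. Without replicate 3 of the 2 NRF2 KO CM groups, whose libraries listed 15702 and 16299 genes above 0 and held 9.87% and 4.74% of TPM in mitochondrial transcripts against 1.54% to 3.32% in the other 22, 2117 genes passed, again with all 821. Without vehicle replicate 1, 516 passed. Of the genes named below as not passing, 16 passed in a fit of the 6 media libraries alone, 17 with array weights and 13 without replicate 3 of the NRF2 KO CM groups.

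**Figure D1:**
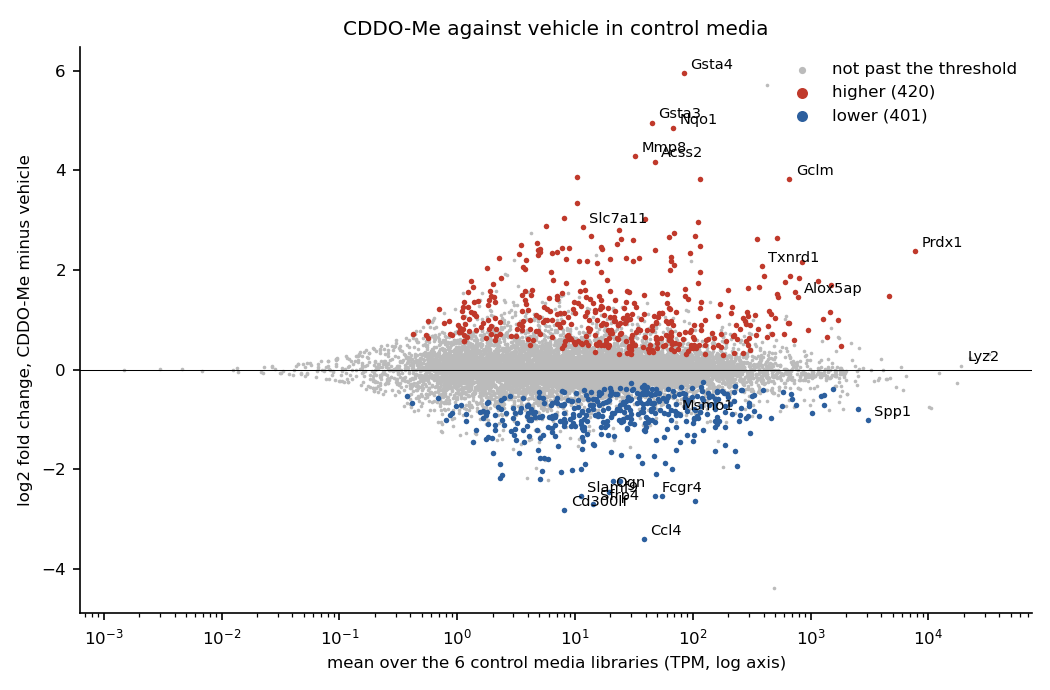
Each point is a gene of the 13661 tested, with its mean over the 6 control media libraries in TPM on a logarithmic x axis and its log2 fold change, CDDO-Me minus vehicle, on the y axis. Red and blue points are the 420 higher and 401 lower genes, and the largest changes with their names run from 5.96 for Gsta4 to -3.40 for Ccl4.

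Of 12 regulators of the pathway tested, Sqstm1 alone rose and none fell, a share of 8.33% beside the 6.01% of all genes. Sqstm1, encoding p62, the autophagy adaptor that can bind KEAP1, was at 454, 449 and 443 TPM with vehicle and 856, 807 and 902 TPM with CDDO-Me. All 3 CDDO-Me libraries were above the vehicle libraries (log2 fold change 0.93, SE 0.14, adjusted p = 0.00026). Nfe2l2 itself was at 272, 267 and 231 TPM with vehicle and 173, 164 and 149 TPM with CDDO-Me, and Keap1 at 38.3, 35.8 and 36.1 TPM and 46.4, 47.8 and 47.4 TPM. The groups did not overlap for either gene, as for 31.5% of all genes tested, Nfe2l2 lying lower and Keap1 higher with CDDO-Me. Neither passed the test (log2 fold change -0.65, SE 0.26, adjusted p = 0.19, and 0.36, SE 0.20, adjusted p = 0.43). Bach1, the repressor that competes for the same elements, was at a fold change of 0.51 on the log2 scale (SE 0.16, adjusted p = 0.062). With the replicate block, 2 regulators rose, Sqstm1 and Bach1 (adjusted p = 4.7e-05 for Bach1). In a fit of the 6 media libraries alone, Nfe2l2 (adjusted p = 0.0032) and Keap1 (0.015) passed.

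Glutathione synthesis and conjugation held the steepest rises. Of its 27 members tested, 14 rose and none fell, with a median log2 fold change of 1.45. Gclm and Gclc encode the modifier and catalytic subunits of glutamate-cysteine ligase, the first step of glutathione synthesis. Gclm (chr3:122039126-122065061, plus strand, in GRCm39 as are the positions below) was at 77.9, 81.6 and 101 TPM with vehicle and 1161, 1084 and 1471 TPM with CDDO-Me (log2 fold change 3.82, SE 0.28, adjusted p = 5.5e-08). Gclc was at 23.9, 25.7 and 26.0 TPM and 103, 95.8 and 139 TPM (log2 fold change 2.10, SE 0.28, adjusted p = 6.5e-05). Every CDDO-Me library was far above every vehicle library for both subunits, and with CDDO-Me Gclm was the more abundant in TPM, a unit scaled by length. Slc7a11, the cystine importer, was at 2.03, 1.96 and 2.02 TPM with vehicle and 18.6, 17.1 and 28.8 TPM with CDDO-Me (log2 fold change 2.86, SE 0.37, adjusted p = 4.3e-05). Gss, which completes glutathione, was at 15.3, 16.1 and 18.0 TPM and 101, 98.0 and 132 TPM, a change of 2.66 (SE 0.25). Neither gene had overlapping groups, and replicate 3 with CDDO-Me was the highest library for both.

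The glutathione transferases Gsta4 and Gsta3 had the largest rises of the genes that passed with a mean of at least 5 TPM. Gsta4 (chr9:78090056-78117763, plus strand), whose enzyme conjugates the lipid peroxidation product hydroxynonenal, was at 1.76, 2.07 and 0.476 TPM with vehicle and 123, 85.1 and 293 TPM with CDDO-Me (log2 fold change 5.96, SE 0.44, adjusted p = 5.5e-08). Gsta3 was at 1.75, 1.16 and 2.69 TPM and 88.9, 67.4 and 111 TPM (log2 fold change 4.96, SE 0.33, adjusted p = 2e-08). Vehicle levels of both were at or under a few TPM, and the CDDO-Me libraries spread widely, with replicate 3 the highest. Alpha-class transferases form a family of similar sequences, so the split of reads among them is uncertain. Among abundant members, Esd, an esterase that acts on S-formylglutathione, was at 631, 686 and 810.3 TPM and 2189, 2190.2 and 2486 TPM (log2 fold change 1.70, SE 0.15), and Mgst1, a microsomal transferase, at 139, 169 and 209.7 TPM and 613, 546 and 735 TPM (1.88, SE 0.19). The other members that rose were Gstm1, Gstp1, Gsr, Gstm2, Mgst2 and Slc3a2. Slc3a2, the partner chain of Slc7a11, lost its call without vehicle replicate 1, 2 or 3 or CDDO-Me replicate 1 or 3 (adjusted p up to 0.18). Blocked on replicate number, 2 members of the list fell.

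The core of the antioxidant response element was searched in the 300 bases before the start of each gene's canonical GENCODE transcript, which can lie inside the gene's full span, as the letters TGACNNNGC on both strands, in the GRCm39 genome. It was in 12.2% of the 13579 windows read, in 15.7% of the windows of higher genes and in 13.3% of those of lower genes. Across 6 lists of NRF2-linked functions (glutathione, quinone and carbonyl detoxification, efflux, thioredoxin, NADPH, heme and iron), 8 of 47 higher members (17.0%) and 6 of 63 members that did not pass (9.52%) held it. The letters were also in 21.6% of the windows of interferon-stimulated genes and in 18.5% of those of heat shock chaperones. A match is a description of letters, not of binding, and enhancers farther away were not searched. Of the 8 higher members, Gclm, Gsta3, Prdx1, Txnrd1, Prdx6, Sod1, Aox1 and Cbr1, the first 4 have their sequences printed here, as their values are given for every library and their match began within 150 bases of the start. Nqo1, Hmox1, Gclc, Srxn1 and Slc7a11 held no match in their windows. Each sequence is shown as the 150 bases before the start, 5′ to 3′ on the gene's strand, with the match in capitals. They are chr3:122038976-122039125 on the plus strand for Gclm, chr1:21310656-21310805 on the plus strand for Gsta3, chr4:116542591-116542740 on the plus strand for Prdx1 and chr10:82694863-82695012 on the plus strand for Txnrd1, all in GRCm39.
Gclm: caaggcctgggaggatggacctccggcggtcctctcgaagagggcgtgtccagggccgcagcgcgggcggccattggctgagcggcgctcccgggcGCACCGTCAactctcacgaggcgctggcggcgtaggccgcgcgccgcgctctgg
Gsta3: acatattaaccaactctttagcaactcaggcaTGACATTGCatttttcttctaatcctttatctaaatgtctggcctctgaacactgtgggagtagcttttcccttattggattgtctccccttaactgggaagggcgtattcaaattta
Prdx1: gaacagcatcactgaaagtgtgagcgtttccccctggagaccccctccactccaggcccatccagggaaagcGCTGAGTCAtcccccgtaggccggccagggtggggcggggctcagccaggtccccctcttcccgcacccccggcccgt
Txnrd1: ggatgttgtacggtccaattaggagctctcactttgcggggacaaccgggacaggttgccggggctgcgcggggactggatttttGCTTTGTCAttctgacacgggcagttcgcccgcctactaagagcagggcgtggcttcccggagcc
The match began 54 bases before the start in Gclm, 118 in Gsta3, 78 in Prdx1 and 65 in Txnrd1, and lay on the strand opposite to the gene in each but Gsta3.

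Quinone, aldehyde and carbonyl detoxification had 17 members tested, of which 10 rose and none fell, with a median log2 fold change of 1.15. Nqo1 (chr8:108113835-108129934, minus strand), the quinone reductase often used as a readout of NRF2, was at 2.63, 2.51 and 4.96 TPM with vehicle and 104, 79.0 and 219 TPM with CDDO-Me (log2 fold change 4.85, SE 0.33, adjusted p = 2.1e-08). The groups were far apart, and replicate 3 was the highest library of each. Ptgr1, which reduces prostaglandins and reactive alkenals, was at 30.7, 30.6 and 29.0 TPM and 149, 150.3 and 174 TPM (log2 fold change 2.35, SE 0.22, adjusted p = 1e-06). Cbr3, a carbonyl reductase, was at 26.1, 25.8 and 30.8 TPM and 174, 176 and 194 TPM (log2 fold change 2.68, SE 0.30, adjusted p = 6.2e-06). Both were tight within vehicle and did not overlap between groups. Ephx1, microsomal epoxide hydrolase, was at 91.7, 102 and 102 TPM and 309, 328 and 261 TPM, a log2 fold change of 1.59 (SE 0.17). Aox1, aldehyde oxidase, was under 1 TPM in each vehicle library, at 0.393, 0.452 and 0.403 TPM, and at 3.06, 2.80 and 4.22 TPM with CDDO-Me (1.59, SE 0.19). Ugt1a6a had a log2 fold change of 2.25, but transcripts of the Ugt1a locus share exons, so the split of reads between it and Ugt1a7c, which also rose, is uncertain. Akr1b8, Akr1c13 and Cbr1 rose as well, although Akr1c13, Cbr1 and Ugt1a7c each lost their call in at least 4 of the 6 fits that left out 1 media library. The abundant Akr1a1 and Aldh2 lay wholly above vehicle, as did 13.3% of all genes tested. Their log2 fold changes of 0.53 and 0.57 did not pass (adjusted p = 0.10 and 0.054). Aldh2 passed with the replicate block (adjusted p = 0.026).

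Thioredoxin, peroxiredoxin and radical defence had 9 of 22 members higher and none lower, with a median of 0.40. Prdx1, the peroxiredoxin that reduces hydrogen peroxide, was the most abundant member, at 2077, 2534 and 2876 TPM with vehicle and 12449, 12015 and 14206 TPM with CDDO-Me (log2 fold change 2.38, SE 0.15, adjusted p = 1.8e-08). All CDDO-Me libraries stood well above the vehicle libraries at this high level. Srxn1, sulfiredoxin, which restores overoxidised peroxiredoxins, was at 86.2, 92.0 and 115 TPM and 582, 541 and 699 TPM (log2 fold change 2.63, SE 0.20, adjusted p = 5.5e-08). Txnrd1, thioredoxin reductase, was at 138, 144 and 167 TPM and 613, 606 and 666 TPM (log2 fold change 2.07, SE 0.16, adjusted p = 5.5e-08), and its substrate Txn1 at 279, 327 and 372 TPM and 624, 627 and 743 TPM (log2 fold change 1.04, SE 0.17). The parts of this cycle thus rose by different amounts, with Srxn1 ahead of Txn1. Cat, catalase, was at 318, 313 and 285 TPM and 1512, 1424 and 1183 TPM (log2 fold change 2.16, SE 0.20, adjusted p = 8.3e-07). Prdx6 had a log2 fold change of 1.00 (SE 0.21), with CDDO-Me replicate 3 above the other two. Sod1, Msrb1 and Osgin1 were the other members that rose, and all 3 lost their call without CDDO-Me replicate 3, Osgin1 also in 4 of the 5 other such fits. In the blocked fit, 1 member fell.

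NADPH is the reducing agent that these enzymes draw on. Of 14 genes of its supply, Pgd, Taldo1, Me1 and G6pdx rose and none fell, and the list's median was 0.04. Pgd, of the pentose phosphate pathway, was at 357, 341 and 363 TPM with vehicle and 1236, 1196 and 1341 TPM with CDDO-Me (log2 fold change 1.83, SE 0.12, adjusted p = 2.1e-08). Taldo1, transaldolase, was at 507, 503 and 556 TPM and 1712, 1636 and 1991 TPM (1.77, SE 0.27), and G6pdx, the entry enzyme of the pathway, at 191, 184 and 190.0 TPM and 389, 384 and 414 TPM (1.07, SE 0.11). The vehicle libraries agreed closely for Pgd and G6pdx, and all CDDO-Me libraries lay above them. Me1, malic enzyme, had a log2 fold change of 1.34 (SE 0.19). Tkt, transketolase, had one of 0.48 and did not pass (adjusted p = 0.057). It did with the replicate block (adjusted p = 0.047).

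In heme and iron handling, 6 of 24 members rose, 2 fell and the median was 0.08. Hmox1 (chr8:75820241-75827217, plus strand), heme oxygenase, which opens the heme ring, was at 365, 382 and 368 TPM with vehicle and 989, 939.7 and 1394 TPM with CDDO-Me (log2 fold change 1.56, SE 0.18, adjusted p = 1.3e-05). Blvrb, biliverdin reductase B, was at 251, 277 and 315 TPM and 925, 891 and 1011 TPM (log2 fold change 1.75, SE 0.14, adjusted p = 1.1e-07). Both were clear of vehicle, as was Alas1, the first enzyme of heme synthesis, at 217, 262 and 384 TPM and 949.5, 957 and 1215 TPM (1.89, SE 0.19). The transporters Slc48a1 for heme, Slc40a1 (ferroportin) for iron export and Slc11a1 of the phagosome had log2 fold changes of 1.17, 1.31 and 0.93. Ncoa4, the ferritin autophagy receptor, and Hmox2, the constitutive heme oxygenase, were the members that fell, and both lost their call without any 1 of the 6 media libraries (adjusted p up to 0.17 for Hmox2 and 0.12 for Ncoa4). The ferritin chains Fth1 and Ftl1, the most abundant members, were above vehicle in every CDDO-Me library, as were 13.3% of all genes tested. Their log2 fold changes of 0.31 and 0.23 did not pass (adjusted p = 0.49 and 0.90). With the replicate block, 4 members fell.

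Of 8 efflux pump genes tested, Abcc1, Abcc4, Abcb6 and Abcc5 rose and none fell. Abcc1, which exports glutathione conjugates, was at 32.6, 30.4 and 40.6 TPM with vehicle and 189, 194 and 207 TPM with CDDO-Me (log2 fold change 2.49, SE 0.17, adjusted p = 2.6e-08). Abcc4 was at 7.49, 7.99 and 7.74 TPM and 25.7, 26.6 and 36.7 TPM (1.79, SE 0.19), and Abcb6, of mitochondrial and lysosomal membranes, at 11.2, 9.80 and 9.16 TPM and 21.0, 21.5 and 20.5 TPM (1.00, SE 0.13). The smallest of the rises, 0.49 for Abcc5, lost its call without any 1 of the 6 libraries (adjusted p up to 0.15).

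**Figure D2:**
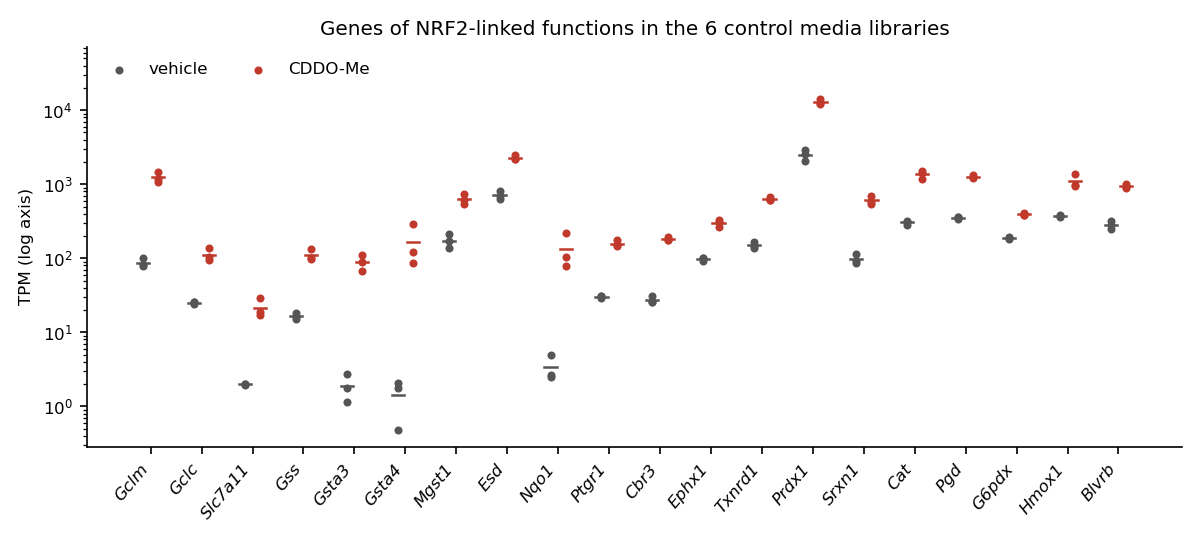
TPM on a logarithmic y axis of 20 genes of glutathione, detoxification, thioredoxin, NADPH and heme functions. Grey points are the 3 vehicle and red points the 3 CDDO-Me libraries, bars are group means, and no gene has overlapping groups.

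Of 27 heat shock chaperones, Bag3 and Dnajb4 rose and Ahsa1 fell, a share of 11.1% beside the 6.01% of all genes, with a median of 0.07. The letters GAANNTTC of a heat shock element pair, on either strand, were in 33.3% of the windows of that list and in 6.75% of all windows. Of 30 genes of the integrated stress response, Slc3a2 rose and Ddit3 and Nupr1 fell, a share of 10% beside the 6.01%, with a median of -0.13. The composite element TTGCATCA of C/EBP and ATF factors was in 13.8% of that list's windows and in 0.611% of all. Ddit3, encoding CHOP, was at 59.6, 65.3 and 58.1 TPM with vehicle and 43.3, 42.1 and 35.7 TPM with CDDO-Me (log2 fold change -0.58, SE 0.12, adjusted p = 0.0043). All CDDO-Me libraries were below vehicle, while Atf3 was at 441, 487 and 444 TPM and 559, 538 and 537 TPM and did not pass (adjusted p = 0.39). Of 20 genes of the unfolded protein response, 1 passed, Herpud1, which fell, a share of 5% beside the 6.01% of all genes. All 20 had fold changes below 0, with a median of -0.18, and the chaperone Hspa5 had one of -0.52 (adjusted p = 0.069). Of 32 proteasome genes, Psmd7 rose (0.44, SE 0.094) and none fell, a share of 3.12%. Of the 32, 30 had fold changes above 0, and the median was 0.18. Without replicate 3 of the NRF2 KO CM groups, 16 proteasome genes rose. Of 12 metallothionein and zinc transport genes, 16.7% passed. The exporter Slc30a1 rose, with a log2 fold change of 1.08, and the importer Slc39a8 fell, with one of -1.11, while the metallothionein Mt1 had one of -0.80 (adjusted p = 0.095). The calls of Bag3, Dnajb4, Ahsa1, Nupr1 and Herpud1 were each lost in at least 3 of the 6 fits that left out 1 media library. Over all alternatives Herpud1 lost its call in 12 and Ahsa1 in 10, among them RLE scaling, no scaling and either filter. Blocked on replicate number, 7 chaperones rose and 2 fell, Hspa5 (adjusted p = 0.00037) was among 2 genes of the unfolded protein response that fell, 3 proteasome genes rose and 1 fell, and 2 genes of zinc handling rose.

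**Figure D3:**
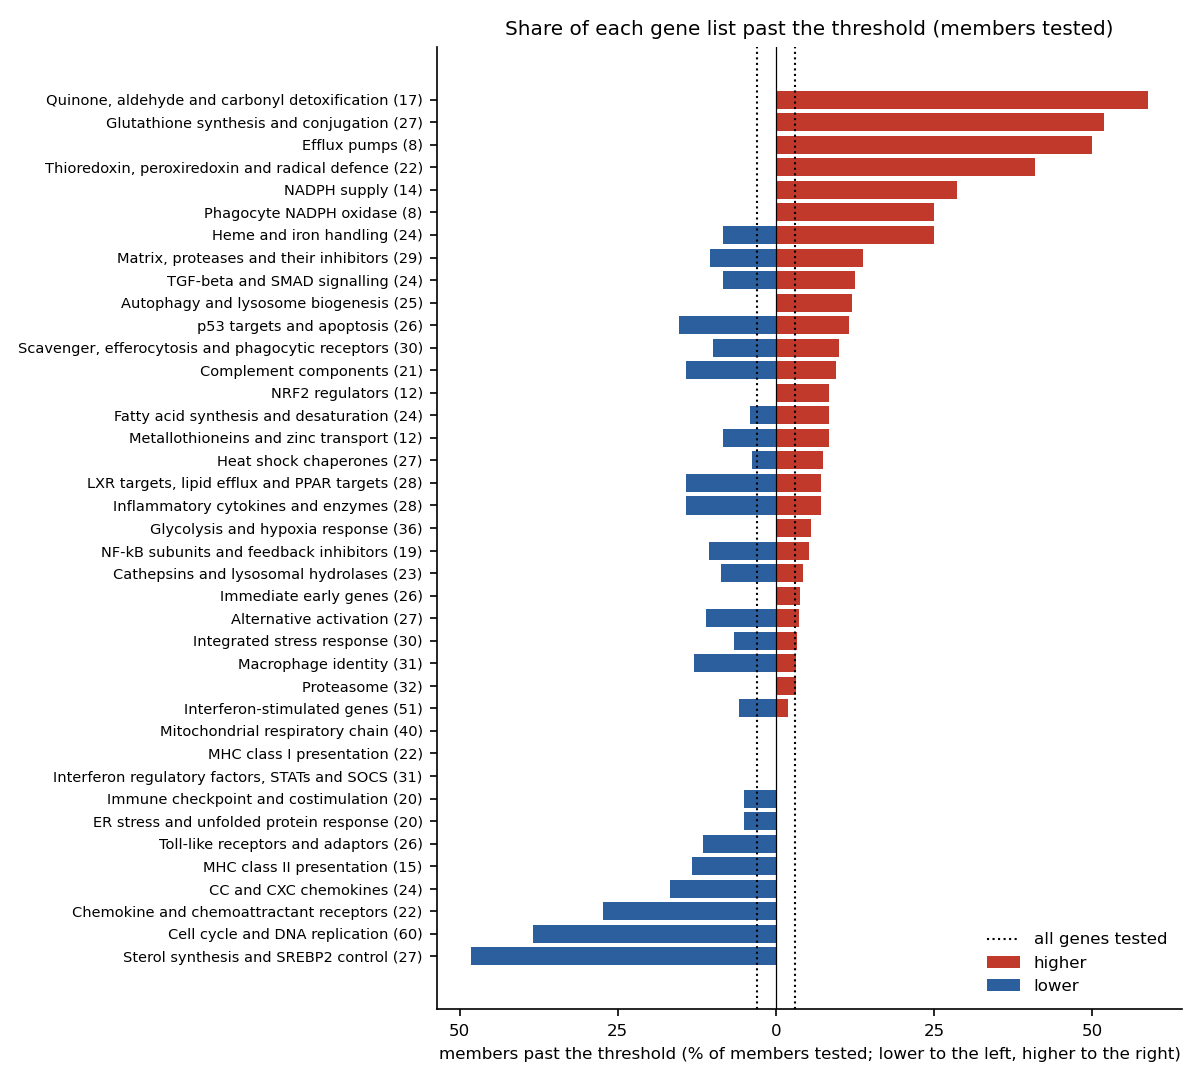
Bars give the percent of the tested members of each list that passed, higher to the right in red and lower to the left in blue, with the number tested in parentheses. Dotted lines mark all genes tested, 3.07% higher and 2.94% lower, and the 5 lists with the largest higher shares are detoxification, glutathione, efflux, thioredoxin and NADPH supply.

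Several of the largest rises lay outside those functions. Mmp8 (chr9:7558457-7568487, plus strand), the neutrophil collagenase, was at 1.37, 1.69 and 3.10 TPM with vehicle and 53.8, 35.9 and 99.9 TPM with CDDO-Me (log2 fold change 4.29, SE 0.71, adjusted p = 0.00055). The 13 neutrophil markers, of which Mmp8 was 1, summed to 61.1, 71.0 and 87.6 TPM with vehicle and 165, 157 and 227 TPM with CDDO-Me, with Csf3r the most abundant and Ly6g at 0 in all 6 libraries. Mmp8 alone of the 7 markers tested passed, and the part of neutrophil RNA in its rise was not tested. Acss2 (chr2:155355679-155428016, plus strand), which makes acetyl-CoA from acetate, was at 4.32, 4.29 and 3.57 TPM and 92.2, 82.0 and 98.7 TPM (log2 fold change 4.18, SE 0.25, adjusted p = 8.5e-09). Il36g, a cytokine of the IL-1 family, was under 1 TPM in each vehicle library and at 18.1, 18.6 and 24.9 TPM with CDDO-Me (log2 fold change 3.86, SE 0.35, adjusted p = 6.7e-07). Procr, the endothelial protein C receptor, was at 11.0, 11.4 and 22.8 TPM and 195, 214 and 234 TPM (log2 fold change 3.82, SE 0.38, adjusted p = 1.7e-06). Of these 4 genes, Mmp8 varied most among the CDDO-Me libraries. The 15 largest rises and the 15 largest falls were picked among genes whose groups did not overlap. The lack of overlap is therefore no added support for them.

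The remaining large rises included surface and secreted proteins. Trem4 was at 6.39, 9.44 and 7.76 TPM with vehicle and 72.3, 84.1 and 58.2 TPM with CDDO-Me (3.03, SE 0.32). Clec4n, encoding Dectin-2, a receptor for fungal mannans, was at 22, 24.0 and 27.0 TPM and 198, 168 and 229 TPM (2.97, SE 0.42). The channel gene Panx1 was at 16.1, 17.5 and 18.3 TPM and 115, 115 and 134 TPM (2.74, SE 0.24). The libraries of each group lay close together for these 3 genes. Serpinb9b, Ednrb (endothelin receptor type B) and Prl2c2 rose by 3.35, 2.80 and 2.89, and Prl2c2 belongs to a family of near copies that could share reads.

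Ccl4 had the largest fall of the genes that passed with a mean of at least 5 TPM. Ccl4 (chr11:83553383-83555509, plus strand), the chemokine MIP-1β, was at 82.1, 81.0 and 49.7 TPM with vehicle and 5.18, 5.06 and 6.65 TPM with CDDO-Me (log2 fold change -3.40, SE 0.39, adjusted p = 9.1e-06). Cd300lf, an inhibitory receptor for phospholipids, was at 16.5, 17.0 and 11.6 TPM and 1.09, 1.70 and 0.916 TPM (log2 fold change -2.82, SE 0.30, adjusted p = 3.5e-06). Fcgr4 (chr1:170846466-170857330, plus strand), an activating Fc receptor for IgG, was at 86.8, 78.7 and 81.8 TPM and 14.1, 11.3 and 14.3 TPM (log2 fold change -2.55, SE 0.27, adjusted p = 3.5e-06). All 3 genes were likewise picked among genes without overlap, and vehicle replicate 3 was the lowest of its group for Ccl4 and Cd300lf. Slamf9 was at 20.7, 21.4 and 17.0 TPM and 2.83, 3.29 and 1.69 TPM (log2 fold change -2.53, SE 0.19, adjusted p = 5.5e-08). Tgm2, transglutaminase, was at 107, 81.9 and 50.7 TPM and 21.6, 20.1 and 11.2 TPM (-2.10, SE 0.41). Tmem273, Ifitm6 and Pilrb2 fell with log2 fold changes of -2.54, -2.20 and -2.06, and so did Trav13-4-dv7, a T cell receptor segment, with -2.24, whose family holds near copies.

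Sfrp4, Npy, Ogn and Dio2 were also among the 15 largest falls. Sfrp4, a secreted WNT antagonist, was at 30.5, 37.8 and 9.95 TPM with vehicle and 2.01, 3.23 and 2.67 TPM with CDDO-Me (log2 fold change -2.70, SE 0.75, adjusted p = 0.035). Ogn, the matrix protein osteoglycin, was at 36.3, 39.5 and 21.3 TPM and 8.29, 10.3 and 0.970 TPM (log2 fold change -2.45, SE 0.66, adjusted p = 0.029). Vehicle replicate 3 was the lowest vehicle library for both, as it was for the sum of the fibroblast markers given above, none of which passed in either direction in the fit of all 24 libraries without the replicate block. Without the block, 2 fibroblast markers passed as higher with the 6 media libraries alone and 2 without replicate 3 of the NRF2 KO CM groups, and with array weights 5 passed as higher and 1 as lower. Sfrp4 lost its call without vehicle replicate 1 or 2 or CDDO-Me replicate 1, 2 or 3 (adjusted p up to 0.15), and Ogn lost its call without vehicle replicate 1 or 2 or CDDO-Me replicate 3 (adjusted p up to 0.19). Npy, a neuropeptide, was at 230.1, 172 and 138 TPM and 22.1, 25.9 and 35.9 TPM (-2.63, SE 0.35), and Dio2, the deiodinase that activates thyroid hormone, at 50.3, 39.3 and 17.5 TPM and 5.24, 5.64 and 7.68 TPM (-2.23, SE 0.29). Again vehicle replicate 3 was the lowest of its group for both.

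**Figure D4:**
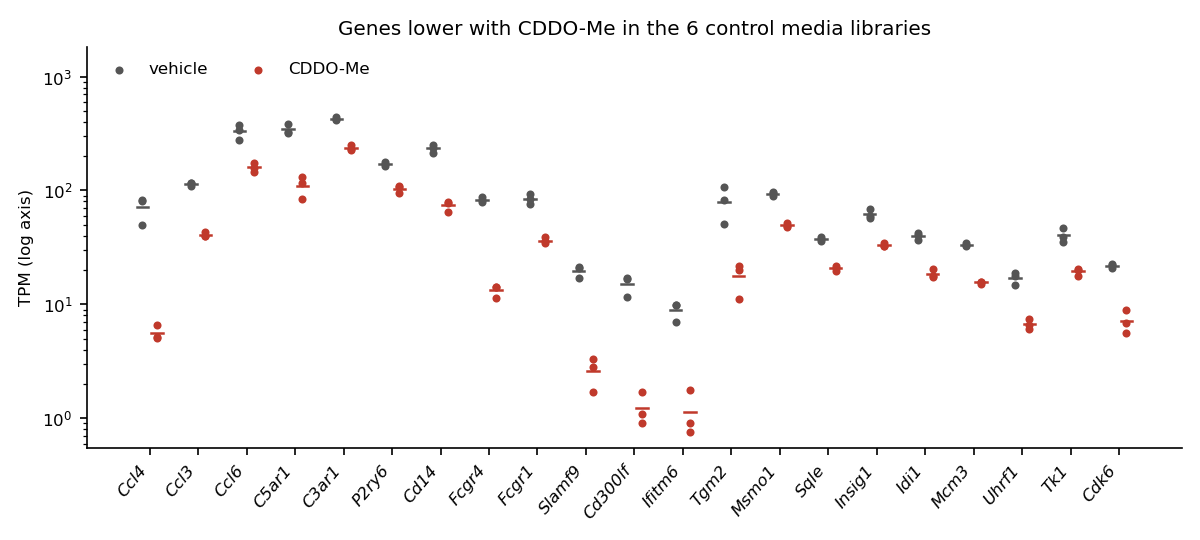
TPM on a logarithmic y axis of 21 genes lower with CDDO-Me, from chemokines and receptors on the left to sterol and cell cycle genes on the right. Grey points are the 3 vehicle and red points the 3 CDDO-Me libraries, bars are group means, and no gene has overlapping groups.

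Chemokines and their receptors were lower where they passed. Of 24 CC and CXC chemokines, Ccl4, Ccl3, Cxcl14 and Ccl6 fell and none rose, with a median log2 fold change of -0.42. Ccl3, MIP-1α, was at 109.7, 116 and 117 TPM with vehicle and 39.7, 39.6 and 42.8 TPM with CDDO-Me (log2 fold change -1.46, SE 0.25, adjusted p = 0.00092). Cxcl14 was at 16.3, 15.1 and 16.0 TPM and 3.75, 3.83 and 2.00 TPM (-2.02, SE 0.36). The groups were clearly separate for both. Ccl6, the most abundant chemokine, was at 279, 338 and 373 TPM and 175, 158 and 146 TPM (adjusted p = 0.015) and lost its call without vehicle replicate 2 or 3 or CDDO-Me replicate 2 or 3 (adjusted p up to 0.078). Ccl2 had a log2 fold change of 0.54 (adjusted p = 0.43) and Cxcl5 of -0.26 (adjusted p = 0.95). Of 22 chemoattractant receptors, 6 fell and none rose, with a median of -0.49. C5ar1 and C3ar1, the receptors of the complement anaphylatoxins, were at 385, 319 and 325 TPM against 130.0, 117 and 84.4 TPM (-1.64, SE 0.28) and 417, 440.3 and 423 TPM against 251, 232 and 228 TPM (-0.84, SE 0.14). P2ry6, a nucleotide receptor, fell with a log2 fold change of -0.71 (SE 0.10), and Ccr3 and S1pr1 fell as well. None of the 6 receptors had overlapping groups. In the blocked fit, 11 receptors fell.

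Il1b, Il6 and Nos2, transcripts of classical activation, were each under 3 TPM in all 6 libraries. Il1b was at 0.765, 1.15 and 0.712 TPM with vehicle and 2.10, 0.418 and 0.114 TPM with CDDO-Me, Il6 at 0.491, 0.121 and 0.132 TPM and 0.454, 1.28 and 0.617 TPM, and Nos2, the inducible nitric oxide synthase, at 0.0549, 0.0197 and 0.0878 TPM and 0.123, 0.0824 and 0.0988 TPM. The groups overlapped for all 3 genes and none passed (adjusted p = 1.00, 0.76 and 1.00). Tnf was at 12.9, 13.9 and 13.4 TPM and 9.20, 8.49 and 9.19 TPM, with every CDDO-Me library lower, as for 18.2% of all genes tested. It did not pass (log2 fold change -0.53, SE 0.24, adjusted p = 0.28). Of 28 inflammatory cytokines and enzymes, Alox5ap and Ptgs2 rose and Ptgs1, Spp1, Il1a and Hpgds fell. Alox5ap, which hands arachidonic acid to 5-lipoxygenase, was at 402, 449 and 405 TPM and 1114, 1117 and 1210.0 TPM (log2 fold change 1.46, SE 0.14, adjusted p = 1.7e-06). Ptgs1, constitutive cyclooxygenase, was at 18.8, 13.3 and 27.4 TPM and 3.64, 3.11 and 6.83 TPM (log2 fold change -1.90, SE 0.29, adjusted p = 0.00026), while the inducible Ptgs2 was at 1.01, 1.14 and 1.88 TPM and 4.87, 4.06 and 8.58 TPM (1.50, adjusted p = 0.012). The pair of cyclooxygenase genes therefore moved in opposite directions, though Ptgs2 lost its call without vehicle replicate 1 or 2 or CDDO-Me replicate 3 (adjusted p up to 0.082). Spp1, osteopontin, was at 3876, 4309.8 and 4134 TPM and 2065, 2072 and 1928 TPM (log2 fold change -1.02, SE 0.19, adjusted p = 0.0016). Il1a fell from a low level, with a log2 fold change of -0.89. With the replicate block, 6 genes of this list rose and 6 fell, and with 1 media library left out 1 or 2 rose.

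Receptors and adaptors upstream of NF-kB had 3 of 26 members lower and none higher, a share of 11.5% beside the 6.01% of all genes. They were Cd14, Cd180 and Ticam1. Cd14, the co-receptor for lipopolysaccharide, was at 249.8, 215 and 238 TPM with vehicle and 77.9, 79.4 and 65.2 TPM with CDDO-Me (log2 fold change -1.64, SE 0.36, adjusted p = 0.0077), with no overlap. The calls of Cd180 and Ticam1 were lost in 5 and 4 of the 6 fits without 1 media library. Among 19 NF-kB subunits and inhibitors, Ikbkg, encoding NEMO, was at 29.5, 35.2 and 32.2 TPM and 77.7, 73.8 and 54.4 TPM (log2 fold change 1.06, SE 0.14, adjusted p = 5.6e-05), and Ikbke, an IKK-related kinase, at 115, 102 and 111 TPM and 41.8, 34.6 and 28.6 TPM (log2 fold change -1.62, SE 0.23, adjusted p = 0.00015). The former was higher and the latter lower in every CDDO-Me library, and Nfkbiz was the other member that fell. The share of the 19 genes that passed was 15.8%.

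Phagocytic and complement receptors went both ways. Of 30 scavenger, efferocytosis and phagocytic receptors, Clec4n, Marco and Cd36 rose and Fcgr4, Fcgr1 and Clec12a fell. Fcgr1, the high-affinity IgG receptor, was at 83.7, 76.5 and 93.4 TPM with vehicle and 38.7, 34.4 and 36.0 TPM with CDDO-Me (log2 fold change -1.19, SE 0.15, adjusted p = 3.2e-05). Marco, a scavenger receptor, was under 1 TPM in each vehicle library and at 4.69, 4.48 and 3.65 TPM with CDDO-Me (1.85, SE 0.28). Cd36, the receptor for oxidised lipoproteins, was at 666, 853 and 1024 TPM and 1500.3, 1586 and 2031 TPM (log2 fold change 1.02, SE 0.29, adjusted p = 0.037), and it lost its call without vehicle replicate 1 or 2 or CDDO-Me replicate 1, 2 or 3 (adjusted p up to 0.19). Groups did not overlap for these 3 genes. Of 21 complement genes, the integrin chains Itgb2 and Itgam rose and C3ar1, C5ar1 and C1qb fell. C1qb, a chain of C1q, was at 3518, 3191 and 2898 TPM and 2164, 2017 and 1412 TPM (log2 fold change -0.79, SE 0.14, adjusted p = 0.0014). Itgb2 was at 661, 655 and 792 TPM and 1165, 1162 and 1293 TPM (log2 fold change 0.79, SE 0.11, adjusted p = 8.7e-05). Of 31 macrophage identity genes, Itgam rose and Fcgr1, Cd14, Sirpa and Cd33 fell, a share of 16.1% beside the 6.01% of all genes. Blocked on replicate number, 6 phagocytic receptors rose and 5 fell, 5 complement genes fell, and 2 macrophage identity genes rose and 9 fell. Leaving out 1 media library, 0 or 1 macrophage identity gene rose and 2 to 4 fell, and 1 to 3 complement genes rose.

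Antigen presentation and interferon genes had 7.84% of interferon-stimulated and 13.3% of MHC class II members called, beside 6.01% of all genes. Of 51 interferon-stimulated genes, Oas3 rose and Tgtp2, Rtp4 and Irgm1 fell, with 41 fold changes below 0 and a median of -0.32. The interferon-stimulated response element, searched on both strands as GAAA, any 2 bases and GAAA, was in 45.1% of the list's windows and in 3.87% of all. Irgm1, an interferon-inducible GTPase, was at 37.0, 35.0 and 34.0 TPM with vehicle and 27.5, 25.2 and 27.2 TPM with CDDO-Me (log2 fold change -0.39, SE 0.11, adjusted p = 0.036), and it lost its call without vehicle replicate 1, 2 or 3 or CDDO-Me replicate 1 or 2 (adjusted p up to 0.18). Without replicate 3 of the NRF2 KO CM groups, 14 of the list fell. Of 15 MHC class II genes, H2-Eb1 and H2-Aa fell and none rose. H2-Eb1 was at 222, 234 and 213 TPM and 116, 117 and 93.5 TPM (log2 fold change -1.03, SE 0.25, adjusted p = 0.016), and H2-Aa at 272, 287 and 283 TPM and 159.9, 156 and 139 TPM (log2 fold change -0.88, SE 0.24, adjusted p = 0.031). H2-Ab1, another MHC class II gene, was at 220.2, 203 and 212 TPM and 129, 132 and 137 TPM and did not pass (log2 fold change -0.66, SE 0.32, adjusted p = 0.32). All 3 genes were lower in each CDDO-Me library, as were 18.2% of all genes tested. H2-Eb1 lost its call without vehicle replicate 1 or 2 or CDDO-Me replicate 3 (adjusted p up to 0.067), and H2-Aa lost its call without any 1 of the 6. Among 22 MHC class I genes and 31 interferon regulatory factors, STATs and SOCS genes, limma called 0, with 2 and 3 at an unadjusted p under 0.05. Of 20 checkpoint and costimulatory genes, Sirpa fell, a share of 5% beside the 6.01% of all genes. Cd274 (PD-L1) and Cd86 had log2 fold changes of -0.37 and -0.59 (adjusted p = 0.70 and 0.54). In the blocked fit, 6 interferon-stimulated genes and 3 checkpoint genes fell, 1 gene of each MHC class rose, and 1 gene of the regulatory factors fell. With 1 media library left out, 1 or 2 interferon-stimulated genes fell and 0 or 1 rose, while 0 or 1 MHC class II gene and 0 or 1 checkpoint gene fell. Oas3 lost its call in 5 of those 6 fits (adjusted p up to 0.26) and Sirpa in 4 (adjusted p up to 0.12). Both also lost it with no filter, and Oas3 with the 6 media libraries alone.

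Of 27 genes of alternative activation, Egr2 rose and Folr2, Tgm2 and Pparg fell, a share of 14.8% beside the 6.01% of all genes. Folr2, folate receptor beta, was at 228, 261 and 350.4 TPM with vehicle and 90.4, 98.1 and 98.6 TPM with CDDO-Me (log2 fold change -1.51, SE 0.19, adjusted p = 2.8e-05). Egr2 was also the sole call among 26 immediate early genes, a share of 3.85% beside the 6.01% of all genes. It was at 28.6, 35.0 and 50.5 TPM and 83.4, 91.5 and 90.4 TPM (log2 fold change 1.24, SE 0.21, adjusted p = 0.00089). Both had separate groups. Mrc1, the mannose receptor, was at 157, 164 and 188 TPM and 134, 137 and 105 TPM (log2 fold change -0.43, adjusted p = 0.46). With the replicate block, 2 genes of alternative activation rose, and of the immediate early genes 2 rose and 2 fell.

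Of the lists described here, sterol synthesis had the largest share of lower members. Of 27 genes tested, 13 fell and none rose, with a median log2 fold change of -0.49. The genes that fell included members of the path from Hmgcs1, Idi1 and Fdps through Fdft1, Sqle and Cyp51 to Msmo1 and Sc5d, with the regulators Srebf2 and Insig1 and the carrier Stard4. Msmo1 (chr8:65170603-65186830, minus strand), a sterol demethylase, was at 88.6, 97.0 and 95.0 TPM with vehicle and 48.9, 51.3 and 48.0 TPM with CDDO-Me (log2 fold change -0.90, SE 0.13, adjusted p = 0.0001). Sqle, squalene epoxidase, was at 36.3, 37.5 and 39.0 TPM and 19.6, 20.9 and 21.9 TPM (log2 fold change -0.82, SE 0.14, adjusted p = 0.00064). Idi1, isopentenyl diphosphate isomerase, was at 36.9, 42.4 and 40.4 TPM and 17.9, 20.4 and 17.3 TPM (log2 fold change -1.06, SE 0.16, adjusted p = 0.00025). Insig1, which retains SREBP in the endoplasmic reticulum, was at 56.7, 60.0 and 69.3 TPM and 32.3, 32.8 and 34.8 TPM (-0.87, SE 0.13). Libraries within a group agreed closely for these 4 genes, and the groups were separate. Fdps and Stard4 had log2 fold changes of -0.83 and -0.71. With 1 media library left out the count was 7 without vehicle replicate 3 or CDDO-Me replicate 1 and 8 without CDDO-Me replicate 2.

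Other lipid genes moved singly. Of 24 genes of fatty acid synthesis, Acss2 and Me1 rose and Mid1ip1 fell, a share of 12.5% beside the 6.01% of all genes. Of 28 LXR and PPAR targets, Ppard and Cd36 rose and Plin2, Pparg, Apoc2 and Fabp4 fell. Plin2, which coats lipid droplets, was at 939.8, 1019.9 and 839 TPM with vehicle and 578, 555 and 560.1 TPM with CDDO-Me (log2 fold change -0.71, SE 0.13, adjusted p = 0.0014). Pparg, the nuclear receptor of fat storage and macrophage lipid uptake, was at 72.3, 79.5 and 65.2 TPM and 49.0, 51.3 and 44.6 TPM (log2 fold change -0.57, SE 0.12, adjusted p = 0.0048), and Ppard at 25.5, 22.2 and 24.5 TPM and 38.7, 40.3 and 45.4 TPM (log2 fold change 0.77, SE 0.12, adjusted p = 0.00022). The 2 receptors thus moved apart, each with separate groups. Apoe, among the most abundant transcripts, had a log2 fold change of -0.27 (adjusted p = 0.49). In lysosomes, 2 genes fell, among them Ctsz, from 1621, 1496 and 1521 TPM to 1057, 1058 and 1129 TPM (log2 fold change -0.51, SE 0.10, adjusted p = 0.003), and Lipa rose. The proteases Ctsb and Ctsd, the most abundant of the 23 lysosomal genes, were lower in every CDDO-Me library, as were 18.2% of all genes tested. Their log2 fold changes of -0.77 and -0.76 did not pass (adjusted p = 0.13 and 0.095). The share of the 23 genes that passed was 13%. Of 25 autophagy genes, Sqstm1, Wipi1 and Gabarapl1 rose and none fell, a share of 12%. Blocked on replicate number, 2 genes of fatty acid synthesis fell, 4 LXR and PPAR targets rose, 7 lysosomal genes fell, Ctsd among them (adjusted p = 0.026), and 5 autophagy genes rose and 1 fell. With 1 media library left out, 1 to 3 autophagy genes and 1 or 2 LXR and PPAR targets rose, and 1 to 3 lysosomal genes and 2 or 3 LXR and PPAR targets fell.

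Cell cycle genes were lower where they passed in the unblocked fit of all 24 libraries. Of 60 tested, 23 fell and none rose, 54 had fold changes below 0 and the median was -0.64. Those that fell included helicase subunits (Mcm3, Mcm4, Mcm5, Mcm6, Mcm10), polymerases (Pole, Pola1, Prim1) and mitotic genes (Kif23, Kif11, Aurkb, Bub1b, Birc5, Top2a, Mki67). Mcm3 was at 32.5, 34.6 and 32.9 TPM with vehicle and 15.8, 15.7 and 15.2 TPM with CDDO-Me (log2 fold change -1.04, SE 0.17, adjusted p = 0.00061). Cdk6 (chr5:3391485-3581008, plus strand), a kinase of the passage into S phase, was at 22, 22.5 and 21.0 TPM and 6.91, 8.83 and 5.56 TPM (log2 fold change -1.51, SE 0.19, adjusted p = 3.4e-05). Uhrf1, which maintains DNA methylation at replication, was at 14.9, 17.7 and 18.8 TPM and 6.64, 7.38 and 6.10 TPM (log2 fold change -1.22, SE 0.23, adjusted p = 0.0018), and Tk1, thymidine kinase, at 35.4, 39.0 and 46.9 TPM and 20.2, 17.9 and 20.5 TPM (log2 fold change -1.0, SE 0.19, adjusted p = 0.0017). Their groups were separate, and the CDDO-Me values of Mcm3 were nearly equal. Kif23 and Pole had log2 fold changes of -1.43 and -1.08. Pcna, the most abundant member, was at 382, 427 and 484 TPM and 278, 276 and 375 TPM and did not pass (adjusted p = 0.19). The count was 9 without vehicle replicate 3, 12 to 15 without any other media library, and 35 without replicate 3 of the NRF2 KO CM groups. In the blocked fit, 31 fell, Pcna among them (adjusted p = 0.034), and 3 rose.

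Of 26 p53 and apoptosis genes, Trp53inp1, Fas and Zmat3 rose and Bcl2a1b, Bcl2a1d, Sesn1 and Bcl2l1 fell. Zmat3 lost its call without any 1 of the 6 media libraries (adjusted p up to 0.18). Trp53inp1 was at 21.9, 27.2 and 22.1 TPM with vehicle and 52.5, 51.4 and 42.4 TPM with CDDO-Me (log2 fold change 1.01, SE 0.094, adjusted p = 7.8e-07). Bcl2a1b, which opposes apoptosis, was at 345, 372 and 425 TPM and 99.8, 101 and 93.6 TPM (log2 fold change -1.94, SE 0.23, adjusted p = 1.4e-05). Both stood clear of vehicle, but Bcl2a1b and Bcl2a1d are near copies whose reads could be shared. The death receptor Fas was at 8.37, 8.29 and 8.62 TPM and 17.9, 19.2 and 16.0 TPM (0.99, SE 0.21). With the replicate block, 6 members rose, and with 1 media library left out 2 or 3 fell.

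Among 36 glycolysis and hypoxia genes, Pkm and Slc2a1 rose and none fell, a share of 5.56% beside the 6.01% of all genes. Pkm, pyruvate kinase, was at 1137, 1079 and 1249.6 TPM with vehicle and 2132, 2202 and 2533 TPM with CDDO-Me (log2 fold change 0.99, SE 0.12, adjusted p = 1.7e-05), and Slc2a1, the glucose transporter, at 34.1, 34.6 and 32.9 TPM and 74.7, 76.5 and 74.8 TPM (log2 fold change 1.14, SE 0.20, adjusted p = 0.00095). Both had separate groups, whereas Gapdh had a log2 fold change of 0.062 and Actb of 0.035 (adjusted p = 0.99 and 0.99). Of 40 genes of the mitochondrial respiratory chain limma called 0, with 0 at an unadjusted p under 0.05. Of 8 genes of the phagocyte NADPH oxidase, 2 rose, among them Hvcn1, its proton channel, and none fell. Hvcn1 was at 168, 164 and 196 TPM and 516, 524 and 624 TPM (log2 fold change 1.66, SE 0.22, adjusted p = 7.1e-05), with separate groups. Blocked on replicate number, 4 glycolysis genes rose and 1 fell.

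Of 29 genes of matrix and proteases, 4 rose, among them Mmp19, Mmp8 and Mmp12, and Spp1, Plau and Adam8 fell. Mmp12, macrophage elastase, was at 1966, 2436 and 2973 TPM with vehicle and 6095, 6427 and 7825 TPM with CDDO-Me (log2 fold change 1.48, SE 0.30, adjusted p = 0.0036). Mmp19 was at 28.2, 30.3 and 33.2 TPM and 79.9, 87.0 and 101 TPM (log2 fold change 1.52, SE 0.21, adjusted p = 0.00011). All 3 metalloproteinases were higher in each CDDO-Me library. Of 24 TGF-β genes, 3 rose, among them Acvrl1 and Tgfbi, and Bmp2 and Tgfbr2 fell. Acvrl1, a receptor for BMP ligands, was at 20.5, 20.1 and 19.3 TPM and 57.5, 60.4 and 55.5 TPM (log2 fold change 1.49, SE 0.25, adjusted p = 0.00055), and Bmp2 at 3.54, 3.40 and 3.00 TPM and 0.707, 0.780 and 0.441 TPM (log2 fold change -1.38, SE 0.31, adjusted p = 0.0088). Plau, Adam8 and Tgfbr2 were each lost in at least 3 of the 6 fits without 1 media library. In the blocked fit, 7 matrix genes and 5 TGF-β genes rose. Leaving out 1 media library, 1 or 2 matrix genes and 1 to 3 TGF-β genes fell.

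The effect of CDDO-Me in control media was then set against its effect in each CM, each measured against vehicle in the same medium. CDDO-Me changed 3797 genes in WT CM (27.8%), 3928 in KEAP1 KO CM (28.8%) and 1335 in NRF2 KO CM (9.77%). The effect itself differed from that in control media for 2054 genes with WT CM (15%) and for 2014 with KEAP1 KO CM (14.7%). With NRF2 KO CM, limma called 0 (0%), and 374 genes had an unadjusted p under 0.05. Without replicate 3 of the NRF2 KO CM groups, CDDO-Me changed 5925, 6148 and 1352 genes in the 3 CM, and limma again called no interaction with NRF2 KO CM (0), 340 genes having an unadjusted p under 0.05. These comparisons share the 6 control media libraries.

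Some genes of the antioxidant response rose more in control media than in WT CM. Gsta3 rose by 4.96 in control media, 1.88 in WT CM and 2.26 in KEAP1 KO CM, and the differences were 3.08 (SE 0.46, adjusted p = 6.6e-05) and 2.70 (SE 0.46, adjusted p = 0.00029). Outside that response, Acss2 of the fatty acid synthesis list rose by 4.18, 1.38 and 1.68, with differences of 2.80 and 2.50 (adjusted p = 7.2e-06 and 3.1e-05). Gclc had log2 fold changes of 2.10, 0.66 and 1.10, and differed from WT CM (adjusted p = 0.017) but not past the threshold from KEAP1 KO CM (adjusted p = 0.11). The same held for Txnrd1, with 2.07, 1.38 and 1.92 (adjusted p = 0.04 and 0.77), and for Hmox1, with 1.56, 0.77 and 1.30 (adjusted p = 0.043 and 0.63). Gclm did not differ past the threshold, with 3.82, 4.06 and 4.13, a difference from WT CM of -0.24 (SE 0.40). Nqo1 had 4.85, 3.68 and 4.44, with differences of 1.17 (SE 0.47, adjusted p = 0.11) and 0.40 (SE 0.47). In NRF2 KO CM the rises were 5.27 for Gsta3, 3.87 for Acss2, 2.46 for Gclc and 5.35 for Nqo1, and without replicate 3 of those groups 5.18, 3.53, 2.31 and 5.07. With the replicate block, Gclc also differed from KEAP1 KO CM (adjusted p = 0.018) and Nqo1 from WT CM (adjusted p = 0.013). The difference from WT CM lost its call without vehicle replicate 1, 2 or 3 or CDDO-Me replicate 3 for Hmox1 (adjusted p up to 0.13), without vehicle replicate 1 or 2 or CDDO-Me replicate 1 or 3 for Txnrd1 (up to 0.10) and without CDDO-Me replicate 3 for Gclc (0.055).

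Several immune genes that fell in control media rose in WT CM and KEAP1 KO CM. Among genes called in control media, those with the smallest interaction p included Irgm1, Fcgr1, Slamf9 and Fcrl1 for WT CM and Irgm1, Fcgr1, Slamf9, H2-Eb1 and H2-Aa for KEAP1 KO CM. Irgm1 had a log2 fold change of -0.39 in control media, 4.77 in WT CM and 4.76 in KEAP1 KO CM, differences of -5.16 (SE 0.15, adjusted p = 6.4e-15) and -5.15 (SE 0.15, adjusted p = 7.2e-15). Fcgr1 had -1.19, 3.33 and 3.50, with adjusted p = 5.7e-12 and 3.1e-12 for the differences. Slamf9 had -2.53, 2.66 and 2.76 (adjusted p = 2.6e-11 and 2e-11). H2-Eb1 had -1.03, 3.74 and 4.33, and H2-Aa -0.88, 3.71 and 4.16. Fcrl1, a member of the Fc receptor-like family, rose in all 3, by 0.89, 3.90 and 3.51. In NRF2 KO CM, the log2 fold changes were -0.37 for Irgm1, -1.13 for Fcgr1 and -1.88 for Slamf9, on the side of control media, and -0.49, -1.17 and -2.16 without replicate 3 of those groups.

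List medians differed between media in several ways. From control media to WT CM and KEAP1 KO CM they changed sign for the interferon-stimulated and both MHC lists. The checkpoint, Toll-like receptor and NF-kB lists did so too, among others, and the rest given here did not. For interferon-stimulated genes, the median effect was -0.32 in control media, 2.93 in WT CM, 2.88 in KEAP1 KO CM and -0.30 in NRF2 KO CM, and 48 of the 51 members had an interaction in each of WT and KEAP1 KO CM. For MHC class II genes the medians were -0.12, 2.86, 2.52 and 0.12, with 10 of 15 members in each of those 2 media. For MHC class I genes they were -0.08, 2.10, 2.31 and 0.04, with 18 of 22 members in each. For checkpoint genes they were -0.23, 0.75, 0.91 and -0.16, with 13 and 12 of 20 members. For sterol synthesis they were -0.49, -1.66, -1.60 and -0.53, with 18 of 27 members in each. For glutathione they were 1.45, 0.73, 1.10 and 1.54, with 7 and 5 of 27 members, the latter close to the share of all genes. For quinone and carbonyl detoxification they were 1.15, 0.45, 0.73 and 1.51, with 8 and 5 of 17 members. Other antioxidant lists were not lower in CM. Thioredoxin and peroxiredoxin genes had medians of 0.40, 0.40, 0.83 and 0.58, with 5 of 22 members in each. Efflux pumps had 0.39, 0.61, 0.55 and 0.69, with 0 and 1 of 8. For cell cycle genes they were -0.64, -1.35, -1.54 and -1.03, with 23 and 29 of 60 members. Without replicate 3 the medians in NRF2 KO CM were -0.38 for interferon-stimulated, 0.11 for MHC class II, -0.55 for sterol, 1.39 for glutathione and -0.80 for cell cycle genes.

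**Figure D5:**
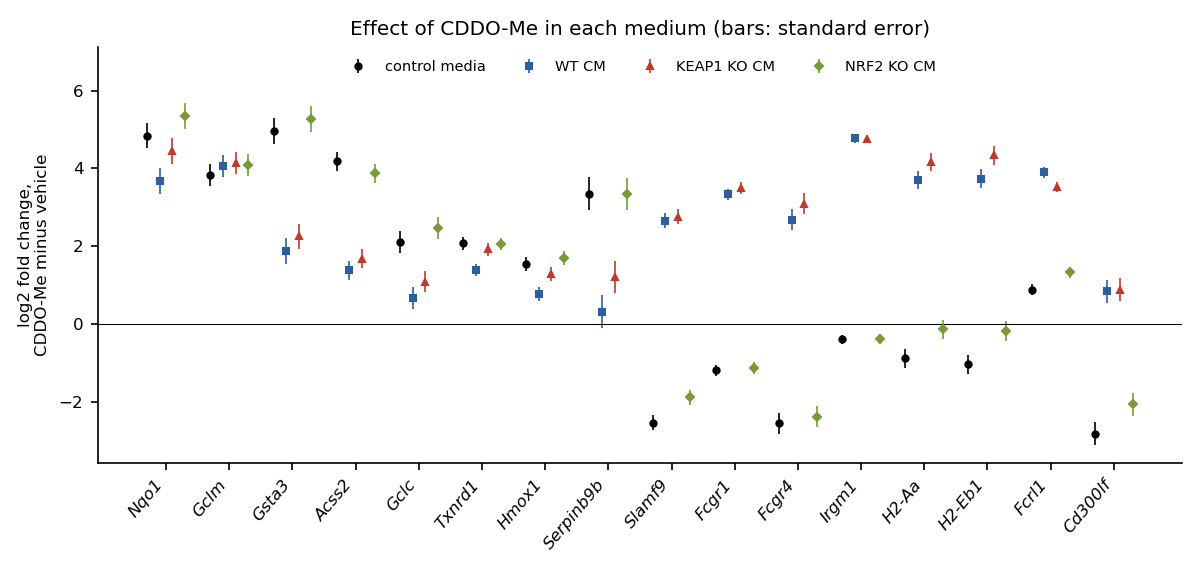
Log2 fold change, CDDO-Me minus vehicle, of 16 genes in control media and in the 3 CM, with bars of 1 standard error. No gene in the plot has an interaction between control media and NRF2 KO CM, and from Slamf9 to H2-Eb1 they are below 0 while those in WT and KEAP1 KO CM are above 0.

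Markers of further cell types were summed as well. Over each list, T and NK cell markers were at 16.6, 15.4 and 13.8 TPM with vehicle and 7.93, 8.70 and 9.09 TPM with CDDO-Me, most of it Cd4, with Gzma at 0. Epithelial and carcinoma markers were under 3 TPM in every library, with Krt8, Krt18 and Cldn3 at 0. B cell markers were at 111, 117 and 90.9 TPM with vehicle and 142, 160 and 106 TPM with CDDO-Me, most of it Ighm, with Pax5 at 0. Osteoclast markers were at 612, 664 and 652 TPM with vehicle and 480, 476 and 587 TPM with CDDO-Me, with Atp6v0d2 the most abundant and Calcr at 0. Endothelial markers were at 98.7, 96.5 and 107 TPM and 67.7, 76.1 and 96.9 TPM, with Vwf the most abundant. Dendritic cell, mast cell and erythroid markers each summed to under 9 TPM. Among all 10 marker lists, Mmp8 and Dcstamp rose and Kit, Cd4, Acp5 and Kdr fell. Dcstamp lost its call in 4 and Kit in 5 of the 6 fits that left out 1 media library. Blocked on replicate number, 4 fibroblast markers rose and 2 fell, 2 neutrophil markers and 1 B cell marker rose, and 2 endothelial, 1 mast cell and 1 epithelial marker fell.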

How the data were processed

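Poly(A) RNA libraries of BMDMs were sequenced by the authors as paired-end reads and pseudo-aligned with kallisto to GRCm39 transcripts. The deposited table gives TPM per gene, although it is named as counts: the libraries had nearly equal totals and values that are not whole, so no count test was used. In the media libraries 0.0490% to 0.0635% of TPM lay in a row without a gene name, which was left out. Genes above 1 TPM in at least 3 of the 24 libraries were kept, factors by the trimmed mean of M values (trims of 30% and 5%) were computed, and log2(TPM + 1) values were fitted with limma 3.58.1 in R 4.3.3 as 8 group means with a trended variance, which left 16 residual degrees of freedom. Tests were two-sided, and p-values were adjusted by Benjamini-Hochberg over all 13661 genes. The fit was tested on simulated data, and the outcome is not reported here.

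The members and the 49 lists were chosen with earlier results of these data known. Named genes were the 15 largest rises and falls past the threshold with a mean of at least 5 TPM and no overlap, up to 6 members per list with the smallest p and its 2 most abundant, a set of fixed genes, and up to 5 genes per CM with the smallest interaction p. Names given without values are the other members that passed; a few genes the rule names are not reported here. Replicate numbers come from the labels. Deviations of libraries with the same number from their group means correlated at 0.16, 0.30 and 0.45 in the 3 pairs, so the numbers may pair the libraries. The main fit and its p-values did not use this pairing. Only the fits with the replicate block did. Pairs with different numbers ran from -0.35 to 0.14, with 0.13 and 0.14 between replicates 1 and 2, close to the 0.16 of the replicate 1 pair. Promoter windows came from GRCm39 with GENCODE starts. No 2 media libraries held identical values. Alternatives changed the scaling, filter, pseudocount, variance model, libraries and pairing.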

Additional observations from a re-analysis of the deposited data

Results flagged for a closer look

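These results drew attention because the effect of CDDO-Me in control media differed, by the interaction term of the limma fit, from its effect in a conditioned medium. It differed for 2054 genes between control media and WT CM and for 2014 genes between control media and KEAP1 KO CM. Values below are log2 differences, the effect in control media minus the effect in the CM. Against WT CM the effect in control media was higher by 2.80 for Acss2, 1.44 for Gclc, 3.08 for Gsta3, 0.79 for Hmox1, 3.03 for Serpinb9b and 0.69 for Txnrd1. Against KEAP1 KO CM it was higher by 2.50 for Acss2, 2.70 for Gsta3 and 2.14 for Serpinb9b.

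The effect was lower in control media than in WT CM, with differences of -3.66 for Cd300lf, -4.52 for Fcgr1, -5.23 for Fcgr4, -3.01 for Fcrl1, -4.59 for H2-Aa, -4.77 for H2-Eb1, -5.16 for Irgm1 and -5.19 for Slamf9. Against KEAP1 KO CM the differences were -3.70 for Cd300lf, -4.68 for Fcgr1, -5.64 for Fcgr4, -2.63 for Fcrl1, -5.04 for H2-Aa, -5.37 for H2-Eb1, -5.15 for Irgm1 and -5.29 for Slamf9. For all of these genes but Fcrl1, the log2 fold change was below 0 in control media and above 0 in both CM.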

How the results depend on the processing

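The count of genes changed by CDDO-Me in control media was between 696 and 909 under RLE scaling, no scaling, either filter, either pseudocount, no trend, a robust fit and factors taken before the filter, the last chosen after seeing the data. It was 3590 with array weights, 1605 with the 6 media libraries alone, 1466 with the replicate block, 2798 with the block in the 6 media libraries, and 2117 without replicate 3 of the 2 NRF2 KO CM groups. With 1 media library left out it was 516 to 605. With array weights the effect differed from that in WT CM for 5398 genes, in KEAP1 KO CM for 5376 and in NRF2 KO CM for 7, and without replicate 3 of the 2 NRF2 KO CM groups for 3917 and 4040 in the former 2. With no filter 1 gene differed from NRF2 KO CM. With 1 media library left out these counts were 1695 to 1839, 1659 to 1907 and 0 to 1. The share of higher genes among those that passed was 51.2%, and 44.6% to 54.5% under the alternatives. The cause of these differences was not tested.

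Of 182 genes named as changed, none reversed direction under these alternatives, 117 passed in every fit that tested them, and 65 lost their call when 1 media library was left out. Those not described so above were Apoc2, Aurkb, Bcl2l1, Bub1b, Ccr3, Cd33, Clec12a, Cyp51, Fabp4, Gabarapl1, Gstm2, Hmgcs1, Hpgds, Itgam, Kif11, Lipa, Mcm4, Mcm5, Mgst2, Mid1ip1, Mki67, Nfkbiz, Pola1, Prim1, Rtp4, S1pr1, Sc5d, Sesn1, Srebf2, Tgtp2, Top2a and Wipi1. Of the 182, 31 lost their call with no filter, 13 with no scaling and 10 with the 6 media libraries alone. Between 3 and 6 lost it with RLE scaling, the stricter filter, a pseudocount of 0.1, no trend or factors taken before the filter. The replicate block in the 24 libraries lost none of the 182 and changed the call of no named gene other than those given, and in the 6 media libraries alone it lost Ticam1. Among genes described as not passing, Akr1a1, Aldh2, Bach1, Ctsb, Ctsd, H2-Ab1, Hspa5, Keap1, Mrc1, Mt1, Nfe2l2 and Tkt passed with the 6 media libraries alone, with array weights and without replicate 3 of the 2 NRF2 KO CM groups. Atf3, Ccl2 and Tnf passed in the first 2 of these fits, Cd86 in the first, Cd274 and Pcna with array weights and Ftl1 in the last. The block in the 6 media libraries called 18 such genes, which were those 16 of the first fit with Csf1r and Pcna. Among values that did not pass, the log2 fold change of Gapdh was -0.0284 with array weights, that of Il1b was 0.32 with array weights and between -0.56 and 0.15 with 1 media library left out, and the difference of Nqo1 from KEAP1 KO CM was between -0.0585 and 0.74 with 1 left out. The difference of Gclc from KEAP1 KO CM also passed with no scaling, array weights and without replicate 3 of the NRF2 KO CM groups, that of Nqo1 from WT CM with no scaling and array weights, and that of Gclm from KEAP1 KO CM with array weights. TPM carry no depth, so the precision of low genes is not known.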

Other observations

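Rps12l1 and Rps12-ps3, both annotated as processed pseudogenes of a ribosomal protein gene, had the largest log2 fold changes among genes that did not pass, and were chosen after their values were seen. Rps12l1 was at 757, 810 and 1142 TPM with vehicle and 5.11, 114 and 108 TPM with CDDO-Me (log2 fold change -4.38, adjusted p = 0.35). Rps12-ps3 was at 1.10, 147 and 10.3 TPM with vehicle and 835, 691 and 903 TPM with CDDO-Me (log2 fold change 5.72, adjusted p = 0.24). Reads of near-identical copies cannot be told apart with certainty, so neither direction is read as a change of either. Ptx3, the long pentraxin, also chosen after its values were seen, was at 29.8, 38.6 and 17.7 TPM with vehicle and 188, 261 and 42.3 TPM with CDDO-Me (log2 fold change 2.19, adjusted p = 0.070), with replicate 3 the lowest of each group.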
